A study of Mus musculus with 28 samples.

Results

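The control RNA of this study came from 2 clones labelled LUC/LUC, which were transduced with constructs named for luciferase and serve as the counterpart of clones in which the histone variant H3.3 was depleted. These clones were chosen by their labels alone and make up 2 of the 28 samples of the series, and 2 of its 5 RNA libraries. The account covers their baseline transcriptome: the most abundant genes, the matrix and lineage profile, the lineages that were silent, and the genes that differed between the clones. It used the value per gene symbol of 22761 genes, after 1190 symbols of short RNA genes (microRNA, small nucleolar, small nuclear and Y RNA) had been left out of the 23951 in the tables.

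All groups used here are NIH/3T3 Tet-On 3G cells, a line of immortalised mouse embryonic fibroblasts that carries a doxycycline-controlled transactivator. The control clones are labelled wild type and carry a GFP-Luciferase and an OFP-Luciferase construct. The 3 knockdown clones, which are given beside them only where a control value turns on it, carry an OFP-H3.3A and a GFP-H3.3B construct. The treatment text attached to the RNA samples names fibroblasts with FLAG- and HA-tagged H3.3 grown with doxycycline, and the labels do not say whether the RNA clones carry that tagged copy or were given doxycycline. Each clone is 1 library from 1 clone, so a difference between clone 1 and clone 2 holds for these libraries and has no replicate, and no p-value is given for it. Polyadenylated RNA was sequenced, and the level of a gene is given as FPKM (fragments per kilobase of transcript, scaled to the mapped fragments of the library), which corrects for transcript length and lets genes be ranked against each other.

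Embryonic fibroblasts are mesenchymal cells that build connective tissue: they secrete fibrillar collagens, proteoglycans and adhesive glycoproteins, and they pull on that matrix through actin stress fibres and integrins. Growing cultures also spend much of their messenger RNA on ribosomes. NIH/3T3 cells arose by repeated passage until cells that no longer senesced took over, and the line is widely used because it stays contact-inhibited.

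The depth behind these values, roughly estimated from the authors' confidence bounds because the tables hold no read counts, was 25927943 fragments for control clone 1 and 25184868 for control clone 2, against 18178864 to 26453738 for the knockdown clones. At this depth the authors' 95% interval had a median half-width of 18.8% and 17.0% of the value in clones 1 and 2 for genes at 1 to 2 FPKM, of 5.77% in either clone at 10 to 20 FPKM, and of 1.22% and 1.23% above 1000 FPKM. These intervals cover counting error only. The targeted genes check the labels: H3f3a was at 128 and 143 FPKM in control clones 1 and 2 and at 71.8, 35.6 and 5.05 FPKM in the knockdown clones, and H3f3b was at 249 and 237 against 144, 104 and 51.7 FPKM, so both genes were lower in each knockdown clone than in either control. In bulk RNA, fewer cells that express a gene and less of its RNA per cell cannot be told apart.

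A gene is called expressed here at a mean of at least 1 FPKM over the control clones, silent when it was below 0.1 FPKM in both, and low in between. By that measure 11289 genes (49.6%) were expressed, 2952 (13.0%) were low and 8520 (37.4%) were silent, of which 5023 were listed at 0 in both clones. Clone 1 alone had 11077 genes at or above 1 FPKM and clone 2 had 11406, with 10937 in common. The median expressed gene stood at 13.4 FPKM, 712 genes reached 100 FPKM, and 70 reached 1000 FPKM.

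Ribosomal protein and translation factor genes held the top of both transcriptomes. The most abundant gene was Eef1a1 (mm9 chr9:78326261-78329531), the elongation factor that carries aminoacyl-tRNA to the ribosome, at 6276 FPKM in clone 1 and 6369 FPKM in clone 2. It was followed by Rps2, a protein of the small ribosomal subunit, at 3592 and 3662 FPKM. Next came Rplp1, a protein of the ribosomal stalk, at 3169 and 2689 FPKM, and Actb, the cytoplasmic actin of stress fibres, at 3277 and 2214 FPKM. The gap below Eef1a1 was far larger than the spread between the clones, while Actb was higher in clone 1 and its clone values spanned those of several genes ranked near it.

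The other genes among the 30 most abundant were of the same few kinds. Ribosomal proteins included Rps12, Rpl41, Rps28, Rpl23a, Rpl32, Rpl19, Rplp0, Rps26, Rps6, Rpl12, Rpl28, Rpl38, Rpl13 and Rps20, which ran from 1604 and 1671 FPKM for Rps20 to 2972 and 2259.7 FPKM for Rps12. Gnb2l1, at 2164 and 2314 FPKM, encodes the ribosome-bound scaffold RACK1. Eef2, which drives the ribosome along the messenger, was at 1802 and 1951 FPKM, and Tpt1, a growth-related translationally controlled protein, was at 2099 and 1993 FPKM. The chaperones Hspa8 and Ppia stood at 2215 and 2049.9 and 2262 and 1842 FPKM, and Gapdh, of glycolysis, at 1892 and 1935 FPKM. Each of these genes differed between the clones by less than 1.5-fold.

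Within this top 30, 24 of the 29 neighbouring pairs in rank had clone values that overlapped, so most of their order does not hold beyond the spread between the clones. Apart from Actb, the widest gaps were in Actg1, the other cytoplasmic actin, at 2562 and 1732 FPKM, Vim at 2419 and 1691 FPKM, the iron storage gene Fth1 at 1409.5 and 2349.7 FPKM and the proteoglycan gene Bgn at 1413 and 1999 FPKM. The actin genes and Vim were higher in clone 1, Fth1 and Bgn in clone 2.

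**Figure D1:**
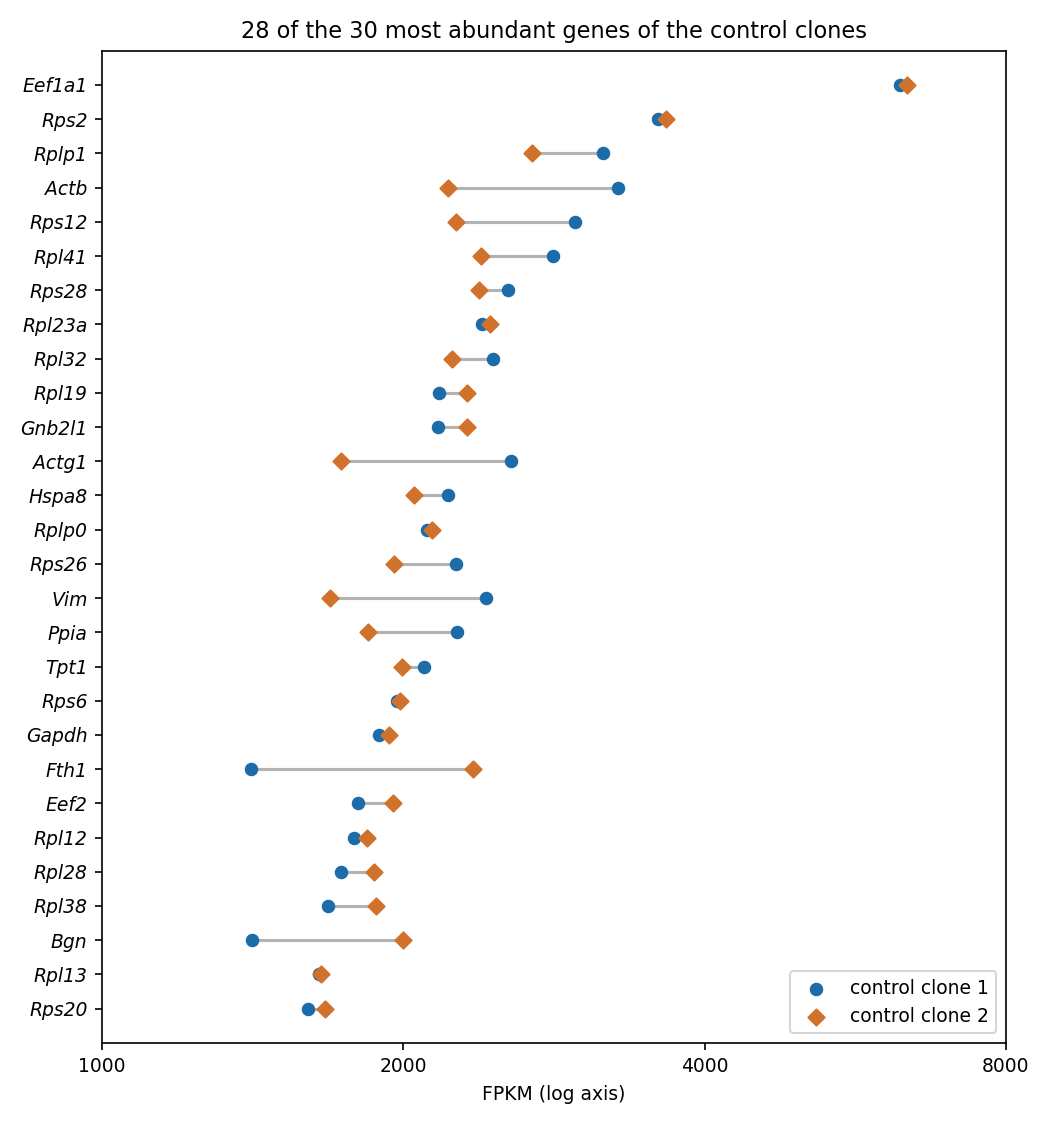
FPKM of 28 of the 30 genes of highest mean level, on a log axis, with a circle for control clone 1, a diamond for control clone 2 and a grey line between them. Eef1a1 stands alone at 6276 and 6369 FPKM, and Actb, Actg1, Vim, Fth1 and Bgn have the widest gaps between the clones.

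Expression was concentrated in few genes and to the same degree in both clones. The 10 most abundant genes held 6.63% of the summed FPKM in clone 1 and 6.16% in clone 2, the 100 most abundant 30.6% and 30.9%, and the 1000 most abundant 63.2% and 62.6%. Of the 100 most abundant genes of each clone, 91 were shared, and of the 10 most abundant, 6 were shared. Across the 11289 expressed genes, which share each library's depth and are not independent replicates, log2(FPKM + 1) in clone 1 and clone 2 had a Pearson r of 0.959.

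The 100 most abundant genes fell largely into a few lists of genes with a known role. Cytosolic ribosomal proteins supplied 53 of them, translation factors 6, and actin cytoskeleton, glycolysis and fibroblast identity 4 each. Chaperones supplied 3, tubulins 2, and adhesive glycoproteins 2, namely Spp1 and Fn1. In all 79 of the 100 belonged to at least 1 of the lists used here and 21 to none, the iron storage genes Fth1 and Ftl1 and the calcium-binding S100a6 and S100a11 among the latter.

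The ribosomal protein list was expressed almost in full. Of its 83 measured genes 80 were expressed, with a list median of 905 FPKM, and together they held 18.8% of the summed FPKM in clone 1 and 18.6% in clone 2. The lowest expressed member was Rpl7l1, a homologue of Rpl7, at 49.6 and 40.0 FPKM. Rpl3l, a form made in striated muscle, was low, and the copies Rps4l and Rpl10l were silent. Many ribosomal protein genes have processed pseudogenes that can take part of their reads, so a value of a single ribosomal gene is uncertain. Rps27 is uncertain in another way: it was at 3.09 FPKM in clone 1 and 125 FPKM in clone 2, while Rps27rt was at 962 and 950.4 FPKM. Both entries lie on nearly the same interval (mm9 chr3:90016589-90017570 for Rps27 and chr3:90016589-90017569 for Rps27rt). Reads of 1 locus may therefore be split between them, which was not tested.

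The other housekeeping lists were expressed in nearly all members. Translation factors were expressed in 30 of 31 members, led after Eef1a1 and Eef2 by the poly(A)-binding protein gene Pabpc1 at 1052 and 1469.8 FPKM and Eef1g at 1142 and 1197 FPKM. Nuclear-encoded respiratory chain genes were expressed in 79 of 86, with Atp5b of the ATP synthase highest at 945 and 776 FPKM, and the silent members were Cox8b and Cox8c. Proteasome genes were expressed in 36 of 39, led by Psmb3 at 269.9 and 273 FPKM, and the testis form Psma8 was silent. Chaperones were expressed in 28 of 30, with Hsp90ab1 at 1776 and 1427 FPKM and the endoplasmic reticulum chaperone Calr at 467 and 389 FPKM behind Hspa8 and Ppia.

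Glycolysis genes were expressed in 18 of 25 members, and forms made in liver or germ line stood apart. After Gapdh the highest were Pkm at 928 and 902, Pgk1 at 635 and 825 and Aldoa at 539 and 918 FPKM in clones 1 and 2. Pgam2, the muscle phosphoglycerate mutase, was the lowest expressed member at 0.898 and 1.65 FPKM. Pklr, a form of liver, and Pgk2 and Ldhc, forms of the testis, were silent.

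Actin and vimentin led the cytoskeleton. Of 36 actin cytoskeleton genes 31 were expressed, with Actb, Actg1 (2562 and 1732 FPKM), the actin-monomer binder Pfn1 (1009 and 768 FPKM) and the actin-severing Cfl1 (972 and 734 FPKM) highest. Cardiac actin Actc1 and Tagln3 were silent. The lowest expressed member of the list was Des, which encodes an intermediate filament protein, at 1.99 and 7.34 FPKM. Vim, the intermediate filament of mesenchyme, was at 2419 and 1691 FPKM, far above the lamins Lmna at 470.0 and 292, Lmnb1 at 81.5 and 37.5 and Lmnb2 at 23.3 and 11.4 FPKM. Of the 22 intermediate filament genes, 9 were expressed and 11 were silent, among them the epithelial keratins Krt18 and Krt19, the glial Gfap and the neural Nes. Tubulins were led by Tubb5 at 1062 and 909, Tuba1b at 1011 and 714 and Tuba1a at 609 and 512 FPKM, with Tuba8 and Tubb1 silent.

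The fibroblast identity list was expressed in 34 of 40 members, against 49.6% of all genes. Its 4 highest members were Vim, the calcium-binding S100a4 at 1541 and 1672 FPKM, fibronectin Fn1 at 959 and 1553 FPKM and the collagen gene Col1a2 at 668 and 776 FPKM. The surface markers Thy1 and Cd34 were at 163 and 188 and 248 and 199 FPKM, and the mesenchymal transcription factors Prrx1, Twist2 and Snai1 at 86.9 and 79.5, 66.0 and 77.9 and 54.1 and 70.8 FPKM. These surface markers and transcription factors, chosen after their values were seen, differed little between the clones. Other members differed more: Fn1, Pdgfra, Ly6a and Dlk1 were higher in clone 2. So were 27 of the 34 expressed members, and 23.5% were past 2-fold in that direction, against 3.17% of all expressed genes.

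Members that mark particular fibroblast states were missing. Fap, a protease of activated fibroblasts, the ectoenzymes Nt5e and Dpp4, and the transcription factors Tcf21 and Meox2 were silent, Lum, a small leucine-rich proteoglycan, was low, and Meox1 was the lowest expressed member at 0.747 and 1.54 FPKM. Most fibroblast markers were therefore present, with 5 below 0.1 FPKM in both clones.

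**Figure D2:**
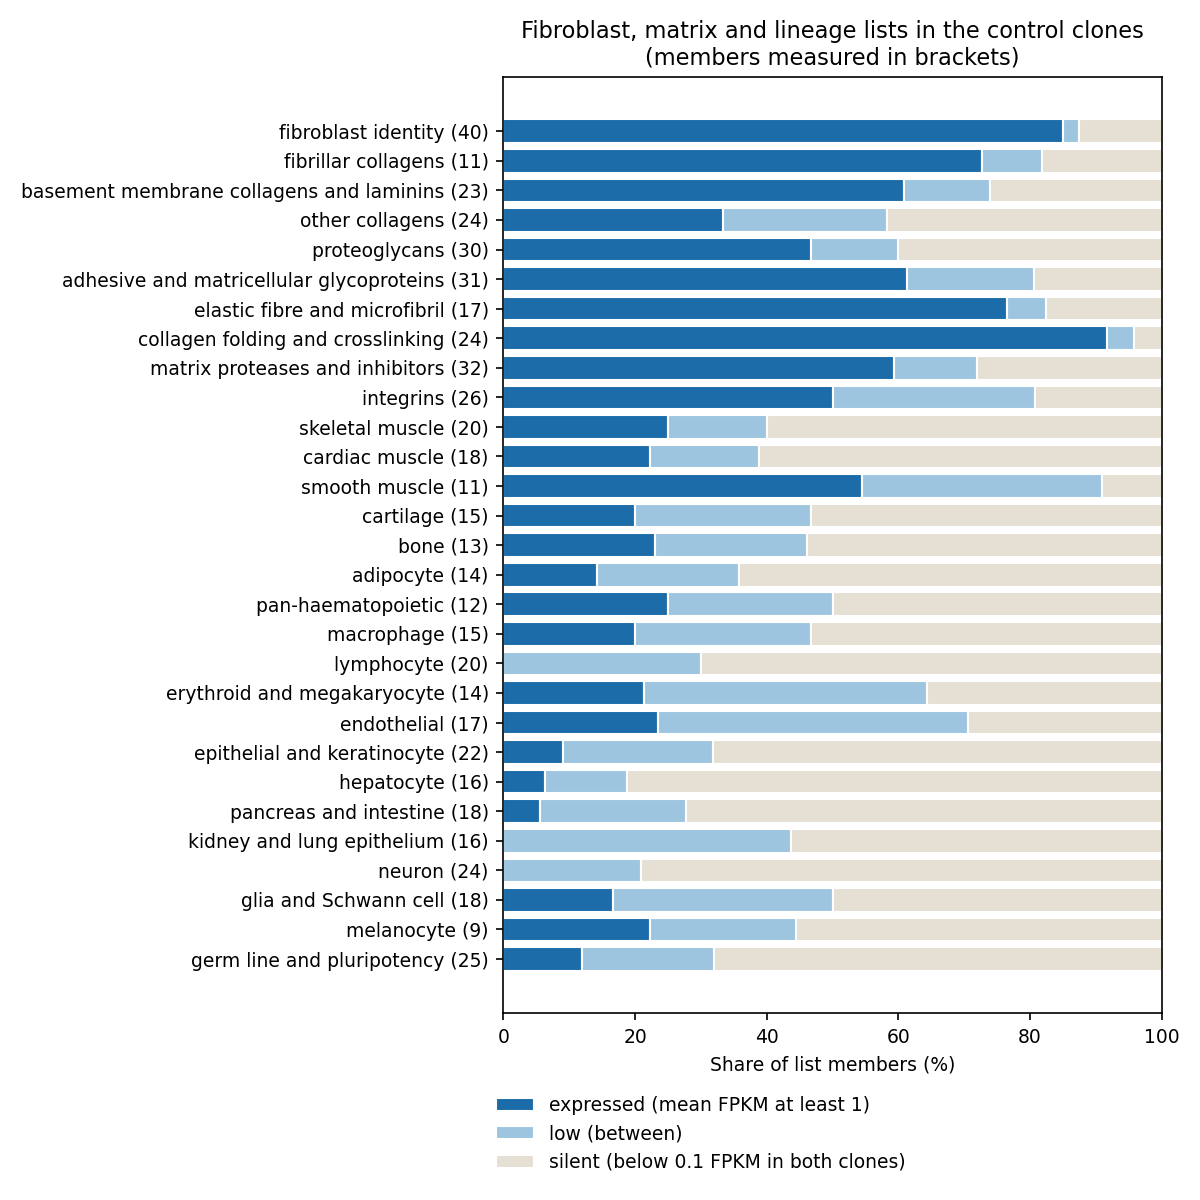
Share of the members of each list that were expressed, low or silent in the control clones, for the fibroblast list, 9 matrix lists and 19 lineage lists, with the number of measured members in brackets. The fibroblast bar is mostly dark blue, the matrix bars range from 33.3% expressed for other collagens to 91.7% for collagen folding and crosslinking, and lymphocyte, kidney and lung, and neuron lists have no expressed member.

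Extracellular matrix genes were expressed somewhat more often than all genes, and unevenly between lists. Over all 9 matrix lists, 130 of 218 genes (59.6%) were expressed, 34 were low and 54 (24.8%) silent. Over all genes 49.6% were expressed and 37.4% silent. The other collagens, at 33.3%, and the proteoglycans, at 46.7%, were below that expressed share, and the integrins, at 50%, were near it. Together the matrix genes held 2.53% of the summed FPKM in clone 1 and 3.64% in clone 2.

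Fibrillar collagens form the tensile fibres of connective tissue, and 8 of 11 were expressed: Col1a2 and Col1a1, which encode the chains of type I collagen, were at 668 and 776 and 511 and 747 FPKM, Col3a1 at 162 and 438 FPKM and Col5a2 at 74.4 and 59.8 FPKM. Col11a2 was lowest at 1.01 and 1.18 FPKM, and the cartilage collagen Col2a1 and Col24a1 were silent. Col1a1 and Col1a2 encode subunits of 1 protein and lay within 1.5-fold of each other in each clone, while Col3a1 lay further below them in clone 1 than in clone 2.

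Among the other collagens, 8 of 24 were expressed, and the beaded-filament chains were the highest. Col6a1 was at 101 and 172, Col6a2 at 76.7 and 118 and Col6a3 at 40.1 and 50.3 FPKM, followed by Col16a1 at 46.3 and 36.3 FPKM. The lowest expressed was Col20a1 at 1.63 and 3.83 FPKM. Col6a5, Col6a6, Col8a2 and Col23a1 were among the 10 silent members. Of 23 basement membrane genes 14 were expressed, led by the laminin chains Lamb1 (89.8 and 112 FPKM) and Lamc1 (46.0 and 56.3 FPKM), nidogen Nid1 (73.0 and 73.6 FPKM) and Lama4 (38.5 and 51.6 FPKM). Lamb3, of epithelial laminin, was the lowest expressed at 0.269 and 1.80 FPKM, and Lama1, Lama3, Col4a3 and Col4a4 were silent.

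Proteoglycans were dominated by a single gene. Bgn, which encodes the collagen-binding biglycan, was at 1413 and 1999 FPKM and ranked among the 30 most abundant genes. The next were the cell-surface syndecans Sdc4 at 89.6 and 109 and Sdc1 at 56.7 and 63.0 FPKM and the large Vcan at 29.0 and 80.6 FPKM. Of 30 members 14 were expressed, with Aspn lowest at 0.773 and 6.27 FPKM, and the 12 silent ones included the cartilage Acan, the brain Ncan and Bcan, and Gpc3.

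Adhesive and matricellular glycoproteins bind cells to the matrix or tune that contact, and 19 of 31 were expressed. Spp1, osteopontin, was at 812 and 2363 FPKM, Fn1 at 959 and 1553, Sparc at 504 and 657 and Ctgf at 481 and 145 FPKM. Thbs3 was lowest at 4.66 and 5.83 FPKM, and Spon1, Matn1, Matn3 and Thbs4 were among the 6 silent members. Of the 17 elastic fibre genes 13 were expressed, with the fibulins Fbln2 at 514 and 511, Efemp1 at 237 and 329 and Efemp2 at 157 and 191 FPKM and Fbln5 at 72.3 and 56.1 FPKM highest. Elastin itself, Eln, was low, Mfap4 was the lowest expressed at 0.281 and 5.09 FPKM, and Fbn2, Fbln1 and Mfap2 were silent.

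The enzymes that fold and crosslink collagen were expressed in 22 of 24 members, the highest share of the matrix lists. Pcolce, an enhancer of procollagen cleavage, was at 351 and 425 FPKM, the collagen chaperone Serpinh1 at 380.5 and 332 FPKM, lysyl oxidase Lox at 223 and 353 FPKM and the prolyl hydroxylase subunit P4hb at 229.5 and 251 FPKM. Loxl2 was the lowest expressed at 1.96 and 2.34 FPKM and Pcolce2 was silent. Matrix proteases and their inhibitors were expressed in 19 of 32, led by the cathepsins Ctsl (342 and 608 FPKM) and Ctsd (209 and 421 FPKM), the gelatinase Mmp2 (88.8 and 229 FPKM) and the inhibitor Timp3 (176 and 141 FPKM). Reck was the lowest expressed at 3.04 and 6.45 FPKM, and the secreted metalloproteases Mmp3, Mmp13, Mmp7 and Mmp8 were among the 9 silent members.

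Integrins, the receptors for this matrix, were expressed in 13 of 26 members. The shared subunit Itgb1 was at 151 and 140.1 FPKM, and its partner Itga5, of the fibronectin receptor, at 36.4 and 50.0 FPKM, with Itgb5 and Itgav at 27.8 and 34.7 and 20.8 and 17.5 FPKM. Itgae was lowest at 0.927 and 1.97 FPKM, and the leukocyte chains Itgam, Itgax and Itgad and the epithelial Itgb6 were silent.

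Receptors for growth factors of mesenchymal tissue were among the signalling genes expressed. The expressed shares of the receptor tyrosine kinase, growth factor and Hox lists were 53.2%, 56.8% and 46.2%, near the 49.6% of all genes. Receptor tyrosine kinases were expressed in 25 of 47 members, with Axl at 189 and 128, Fgfr1 at 44.8 and 106, Pdgfra at 25.7 and 86.5 and Met at 42.7 and 32.8 FPKM highest, and Ephb6 lowest at 0.753 and 1.25 FPKM. Kdr, Kit, Flt3 and Ret were silent. Growth factor ligands were expressed in 25 of 44, with Csf1 at 131 and 103, Fgf7 at 78.8 and 103, Vegfb at 57.8 and 60.2 and Pdgfa at 47.95 and 31.9 FPKM highest and Igf1 lowest at 2.24 and 2.02 FPKM. Bmp3, Bmp4, Bmp7 and Pdgfb were silent. Hox genes, which record position along the body axis, were expressed in 18 of 39 members: Hoxd8 at 26.0 and 54.9, Hoxa7 at 14.2 and 8.87, Hoxa5 at 12.5 and 9.82 and Hoxd9 at 8.01 and 11.1 FPKM led, Hoxc5 was lowest at 1.20 and 1.02 FPKM, and Hoxc8, Hoxb2, Hoxd11 and Hoxc9 were silent.

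All 34 cell cycle and replication genes was expressed, led by Cdk4 at 308 and 264, the replication clamp Pcna at 267 and 152, the helicase subunit Mcm7 at 176 and 106 and the mitotic activator Cdc20 at 158 and 107 FPKM. Ccne2 was lowest at 3.68 and 1.36 FPKM. Among 21 genes of the p53 pathway and the Cdk inhibitors, 17 were expressed: Trp53 itself was at 139.6 and 122 FPKM, its targets Phlda3, Ccng1 and Cdkn1a at 211 and 139.6, 166 and 156 and 106 and 141 FPKM. Rb1 was the lowest expressed at 5.12 and 7.26 FPKM, and the telomerase gene Tert, at 0 and 0.00817 FPKM, and Cdkn1c were silent.

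The Cdkn2a region held further silent genes. Cdkn2a (mm9 chr4:88920377-88940523), which encodes tumour suppressors that restrain Cdk4 and Mdm2, and its neighbour Cdkn2b were listed at 0 in both control clones and in all 3 knockdown clones. The adjacent gene Mtap was at 241 and 222 FPKM in the control clones, the highest of that list, and had an H3K4me3 peak, while Cdkn2a and Cdkn2b had none. The other neighbour, Dmrta1, was at 0.0132 and 0.0241 FPKM. Whether the pair is deleted or silenced was not tested. Of the 14 sex-linked genes 4 were expressed, all from the X chromosome: Eif2s3x at 113 and 92.0, Ddx3x at 93.4 and 63.5, Kdm5c at 11.7 and 10.9 and Kdm6a at 4.71 and 5.31 FPKM. Xist was silent at 0.0141 and 0.00602 FPKM, and so were the Y-linked Ddx3y, Uty, Eif2s3y and Kdm5d.

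Most genes of other lineages were silent. Of 316 members of the 19 lists of other cell types, 185 (58.5%) were silent, 79 of them at 0 in both clones, 83 were low and 48 (15.2%) were expressed, against 37.4% silent and 49.6% expressed over all genes. Only 22 had a mean of at least 5 FPKM.

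No member was expressed in the lymphocyte (20 genes), neuron (24 genes) and kidney and lung epithelium (16 genes) lists, where 14, 19 and 9 were silent. The T cell receptor partners Cd3e and Cd3g and the B cell Pax5 were silent, as were the neuronal Syt1, Rbfox3, Slc17a7 and Dcx. Epithelial genes were silent in 15 of 22, the keratins Krt5, Krt18 and Krt19 and the transcription factor Grhl2 among them, and Krt14 at 1.64 and 1.28 and Krt10 at 1.22 and 1.25 FPKM were the only members above 1 FPKM. Hepatocyte genes were silent in 13 of 16, with Alb, Apoa1, Ttr and Hnf4a all below 0.1 FPKM. In the pancreas and intestine list 13 of 18 were silent, 12 of them listed at 0. Of 12 pan-haematopoietic genes 6 were silent, Ptprc, Spi1, Ikzf1 and Laptm5 among them, 3 were low, and Cd48 at 1.82 and 0.758, Cd53 at 0.0809 and 2.15 and Lcp1 at 1.36 and 2.94 FPKM were expressed. Of 15 macrophage genes 8 were silent, and Cd14 at 5.95 and 7.52, Cd68 at 3.43 and 3.10 and Lyz2 at 1.14 and 3.20 FPKM were expressed. Of the 14 erythroid and megakaryocyte genes 5 were silent, Gata1 and Tal1 among them, 6 were low and 3 were expressed: Itga2b, an integrin of platelets, at 2.62 and 5.82, the globin gene Hba-a1 at 1.02 and 2.63 and the platelet chemokine gene Ppbp at 1.08 and 1.71 FPKM.

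Some regulators of mesenchymal lineages were expressed, while other regulators, such as Tbx5, Sp7 and Myod1, and most other genes of their lists were silent. Sox9, the regulator of cartilage, was at 64.8 and 61.0 FPKM. Of the 15 cartilage genes 3 were expressed, Col11a2 and Sox9 among them, and 4 were low. The other 8 were silent, among them Col2a1, Acan, Matn1 and Matn3. Runx2, the regulator of bone, was at 12.9 and 14.9 FPKM. Of the 13 bone genes 3 were expressed, 3 were low and 7 were silent, Sp7, Alpl, Ibsp and Dlx5 among the silent. Spp1 was by far the highest bone gene at 812 and 2363 FPKM. The cardiac regulators Nkx2-5 and Gata4 were at 12.0 and 8.34 and 8.93 and 7.11 FPKM, while Tbx5, Hand2, Myh6, Myh7 and Ryr2 were silent. Among the skeletal muscle genes, Acta1 was at 53.8 and 38.6 FPKM and Myod1, Myog, Ckm and Myh4 were silent. Actin genes are close copies of each other, so part of the reads of Acta1 may come from Actb or Actg1, which was not tested.

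Smooth muscle was the lineage list with the largest expressed share, 6 of 11. Acta2 was at 293 and 164, Tagln at 92.4 and 33.1, Smtn at 36.2 and 56.7 and Cnn1 at 13.8 and 8.82 FPKM. These genes encode contractile and actin-binding proteins that stress fibres also use. Myocd, the regulator of smooth muscle, was silent, and Myh11 and Lmod1 were low.

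The remaining lineage genes at 5 FPKM or more were scattered over several lists. Among glia and Schwann cell genes, the glutamate transporter Slc1a3 was at 34.5 and 54.6 FPKM and the myelin protein Pmp22 at 19.6 and 24.9 FPKM, with Gfap, Sox10 and Olig2 silent. The protease gene Cela1 was at 11.4 and 18.4 FPKM, lipoprotein lipase Lpl at 5.50 and 16.8 FPKM with Adipoq, Lep and Cebpa silent, and Serpina1a at 14.0 and 1.83 FPKM. Endothelial Cdh5 and Egfl7 were at 3.78 and 6.89 and 5.01 and 6.30 FPKM. Of the 17 endothelial genes 4 were expressed, 8 were low and 5 were silent, Kdr, Erg, Sox17 and Cldn5 among the silent. That silent share, 29.4%, was below the 37.4% of all genes. Klf4 was at 21.0 and 25.4 FPKM, and Pou5f1, Zfp42 and Dppa3 of pluripotent cells were silent. Nanog read 3.57 and 5.58 FPKM, but it has processed copies, carried no H3K4me3 peak, and is uncertain. Of the melanocyte genes, Tyr was at 1.95 and 2.21 and Mitf at 1.68 and 1.96 FPKM, and Dct, Mlana and Kit were silent.

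Histone marks mapped in unmodified cells of the line, with 1 library per mark, followed these expression classes. H3K4me3 marks active or poised promoters, and H3K9ac and H3K27ac mark active ones. A deposited H3K4me3 peak lay within 1 kb of either gene end for 92.3% of the 11289 expressed genes (exact 95% interval 91.8% to 92.8%), 36.9% of the 2952 low genes (35.2% to 38.7%) and 7.63% of the 8520 silent genes (7.07% to 8.21%). For H3K9ac the shares were 86.7%, 21.6% and 2.16%, and for H3K27ac 63.4%, 16.2% and 2.83%. The intervals cover counting over genes only. Among the 100 most abundant genes, 98 had an H3K4me3 peak near an end, and the exceptions were Gnas and the predicted gene Gm12070. Peaks inside a gene, away from both ends, were not counted, and the Gnas entry is long (mm9 chr2:174109821-174172243).

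**Figure D3:**
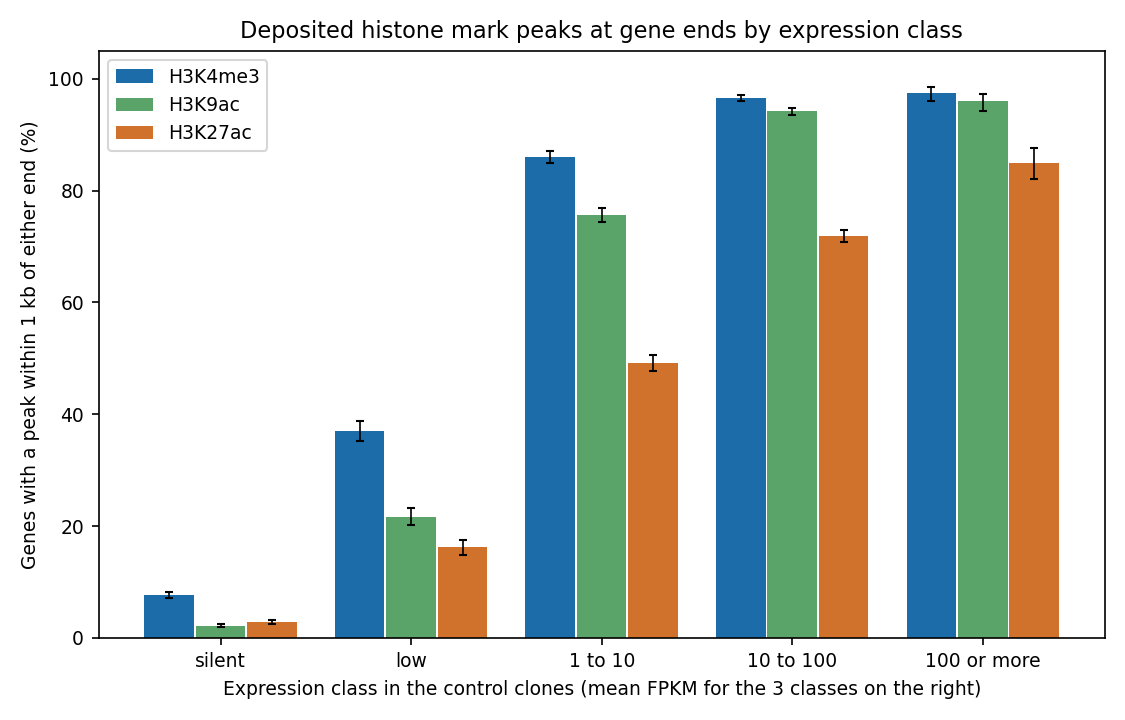
Share of genes with a deposited H3K4me3, H3K9ac or H3K27ac peak within 1 kb of either end, by expression class in the control clones, with exact 95% binomial intervals as whiskers. The H3K4me3 share is higher at each level, from 7.63% of silent genes to 86.0% at 1 to 10 FPKM and 97.5% at 100 FPKM or more.

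The silent lineage genes were mostly unmarked as well. Of the 185, 18 (9.73%) had an H3K4me3 peak near an end, against 7.63% of all silent genes. Among them were Ptprc, Spi1 and Ikzf1 of blood cells, Dlx3 of bone, Ngfr of Schwann cells and Nefm of neurons. Scgb1a1 and Sftpc, genes of lung epithelium, also had H3K9ac and H3K27ac peaks while listed at 0. Because either end of a gene was used, a peak can belong to a neighbouring gene.

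The clones resembled each other closely for most genes. On the log2(FPKM + 1) scale the median difference, clone 1 minus clone 2, was 0.01, and the median absolute difference over the 11289 expressed genes was 0.26. Clone 1 was higher by any amount for 51% of them and clone 2 for 49%. Of all 10 pairs among the 5 RNA libraries, the control pair had the smallest share of genes past 2-fold, 3.84% of the 11368 genes with a mean of at least 1 FPKM over the 5 clones, and the other 9 pairs had 4.50% to 20.0%. Some control and knockdown pairs were about as close. The SD of the log2 difference was 0.498 for the control pair and 0.496 for control clone 1 against knockdown clone 2.

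The genes past 2-fold leaned towards clone 2. A 2-fold difference on the log2(FPKM + 1) scale was reached by 100 genes with clone 1 higher, which is 0.886% of the expressed genes, and by 358 genes with clone 2 higher, which is 3.17%. In all 458 genes, 4.06%, were past 2-fold. A 4-fold difference was reached by 6 genes in favour of clone 1 and 75 in favour of clone 2. The authors' intervals were apart for 99 of the 100 and 357 of the 358, but also for 64.5% of all expressed genes, so at this depth counting error alone is small beside the difference between libraries.

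**Figure D4:**
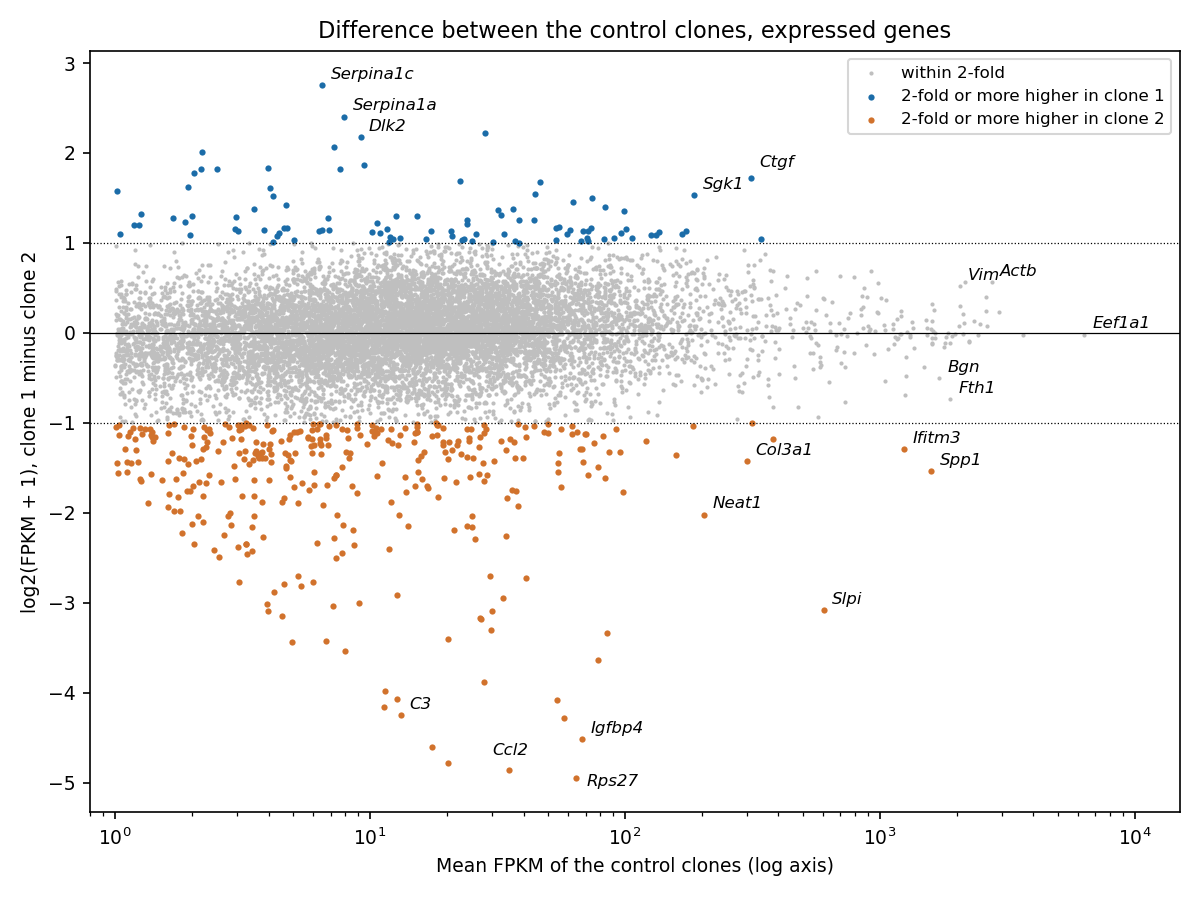
Difference in log2(FPKM + 1), clone 1 minus clone 2, against the mean FPKM (log axis) for the 11289 expressed genes, with dotted lines at 2-fold. The 358 genes higher in clone 2 reach further from 0 than the 100 higher in clone 1, and Slpi, Spp1 and Ifitm3 are abundant genes among them.

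The genes with the largest differences were higher in clone 2. Ccl2, a chemokine that attracts monocytes, was at 1.40 FPKM in clone 1 and 68.5 in clone 2, and its neighbour Ccl7 at 0.485 and 40.0 FPKM. In the knockdown clones Ccl2 read 0.894, 0.329 and 0.880 FPKM, so clone 2 was the only 1 of the 5 clones in which it was high. Dpt (mm9 chr1:166726863-166754397), a matrix protein of the dermis, was at 0.458 and 34.6 FPKM, and Igfbp4, which binds insulin-like growth factors, at 4.77 and 131 FPKM. Igfbp4 was at 25.6, 19.6 and 11.2 FPKM in the knockdown clones, all of them between the control values.

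The other genes of largest difference in favour of clone 2 were at low level in clone 1. Plac8 was at 4.75 and 111 FPKM in clones 1 and 2, the extracellular superoxide dismutase Sod3 at 5.15 and 103 FPKM, and Srpx2 at 0.309 and 22.4 FPKM. C3, the central component of complement, was at 0.421 and 26.0 FPKM, angiotensinogen Agt at 0.546 and 24.9 FPKM, the alarmin Il33 at 0.480 and 22.5 FPKM and the lipopolysaccharide-binding Lbp at 2.68 and 53.4 FPKM. The knockdown clones split on these genes: C3 read 129.8, 5.23 and 0.344 FPKM and Lbp 58.1, 20.4 and 2.77 FPKM in knockdown clones 1 to 3, while Srpx2 read 0.404, 0.0650 and 1.10 FPKM. The difference in Rps27, the largest of those named by the rule, may lie in how reads were split with the overlapping entry Rps27rt, as given above. Its values in the knockdown clones were 322, 5.39 and 143 FPKM.

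Clone 1 was higher in a smaller and more moderate set. Id1 (mm9 chr2:152561987-152563146), a target of bone morphogenetic proteins, was at 71.3 FPKM in clone 1 and 21.6 in clone 2, and Dlk2, a Notch-related membrane protein, at 15.7 and 2.70 FPKM. The muscle-type genes Actg2 and Tnnt2 were at 15.4 and 3.52 and 12.4 and 2.81 FPKM and the pro-apoptotic Bok at 35.0 and 10.2 FPKM. Pet117, an assembly factor of the respiratory chain, was at 12.3 and 2.17 FPKM, and as the knockdown clones were at 11.4, 13.1 and 12.4 FPKM, clone 2 was the only 1 of the 5 in which it was low. Serpina1c and Serpina1a, which encode alpha-1-antitrypsin, were at 12.0 and 0.938 and 14.0 and 1.83 FPKM.

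Several abundant genes were among those that differed. Slpi (mm9 chr2:164179806-164182243), a secreted inhibitor of leukocyte proteases, was at 126 FPKM in clone 1 and 1077 in clone 2, 8.55-fold higher in clone 2, and at 645, 405 and 121 FPKM in the knockdown clones. The nuclear non-coding RNA Neat1 was at 79.9 and 327 FPKM, Spp1 at 812 and 2363 FPKM, Col3a1 at 162 and 438 FPKM and Mmp2 at 88.8 and 229 FPKM. Ifitm3, an interferon-induced membrane protein, was at 723 and 1770.0 FPKM, the transmembrane gene Grina at 73.0 and 169 FPKM and the retinoic acid-binding Crabp1 at 232 and 528 FPKM. In the opposite direction Ctgf (mm9 chr10:24315248-24318488), a matricellular gene driven by mechanical and TGF-beta signals, was at 481 and 145 FPKM and the kinase gene Sgk1 at 278 and 95.8 FPKM. Ctgf was lower in all 3 knockdown clones than in either control, at 9.45, 131 and 111 FPKM, whereas the knockdown values of Sgk1 were 50.3, 204 and 158 FPKM and 2 of the 3 lay between the controls.

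The genes that differed between the controls also varied among the knockdown clones, which were not used to choose them. The range over the 3 knockdown clones was at least 2-fold for 59.4% of the 458 genes and for 16.4% of the expressed genes that were within 2-fold between the controls. Of the 358 genes higher in clone 2, clone 2 was the highest of all 5 clones for 182 and clone 1 the lowest of all 5 for 195. Of the 100 genes higher in clone 1, clone 1 was the highest of all 5 for 66. Choosing genes by the control difference itself raises these last counts, and over all expressed genes the corresponding shares were 20.3% for clone 2 highest, 17.6% for clone 1 lowest and 28.4% for clone 1 highest.

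Some of the genes that differed lay side by side. There were 9 runs of at least 3 neighbouring expressed genes past 2-fold in the same direction, holding 36 genes, and 8 of the runs were higher in clone 2. On chromosome 11 the chemokine genes Ccl2, Ccl7, Ccl11 and Ccl8 (mm9 chr11:81849079-81930301) formed a run in which Ccl11 was at 0 and 4.09 FPKM and Ccl8 at 0.0855 and 4.804 FPKM, and all 4 were below 1 FPKM in each knockdown clone. A further chemokine run held Ccl5, Ccl9, E230016K23Rik, Wfdc18 and 1100001G20Rik (chr11:83339281-83566148), with Ccl5 at 0.0803 and 3.14 and Ccl9 at 3.09 and 20.7 FPKM, and there knockdown clone 1 exceeded both controls for Ccl5 at 23.4 FPKM. Igfbp4 lay in another run on that chromosome with Tns4 at 1.81 and 8.27 and the chemokine receptor Ccr7 at 0.400 and 6.13 FPKM (chr11:98902574-99016391).

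The remaining runs held gene families and 2 mixed groups. The Ly6 genes, which encode small surface proteins used as markers of progenitor and blood cells, formed a run on chromosome 15 (chr15:74785481-74942379): Ly6a was at 14.5 and 156, Ly6c1 at 4.64 and 54.9, Ly6c2 at 0.784 and 11.2, Ly6e at 31.3 and 68.7 and Ly6i at 0.331 and 3.50 FPKM. The complement proteases of chromosome 6 (chr6:124462639-124586103) were C1s1 at 7.09 and 51.8, C1s2 at 2.15 and 15.2, C1ra at 15.7 and 34.1 and C1rb at 9.33 and 21.1 FPKM. Ifitm1 at 14.4 and 41.0, Ifitm3 and Ifitm6 at 0.390 and 6.49 FPKM formed a run on chromosome 7 (chr7:148153328-148202791), and Ctsd, Tnni2, Lsp1 and Tnnt3 another (chr7:149561821-149701914). Hsd11b1, which activates glucocorticoids, was at 0.574 and 10.1 FPKM and lay beside Lamb3 and Camk1g (chr1:195047835-195196476).

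The only run higher in clone 1 consisted of the 5 Serpina1 copies on chromosome 12 (mm9 chr12:104966366-105195107). Beside Serpina1a and Serpina1c it held Serpina1b at 3.72 and 0.376, Serpina1d at 4.48 and 0.545 and Serpina1e at 3.95 and 0.402 FPKM, and Serpina1b, Serpina1d and Serpina1e were below 0.1 FPKM in every knockdown clone. These genes are near-identical copies, and the sequence before their starts shows how close: in RefSeq windows of the build GRCm38.p6, all 5 share an unbroken stretch of 59 bases on the minus strand that begins 55 to 117 bases before the annotated start with ccctctctgtttgctctaccaataactgtg (chr12:103863650-103863679 for Serpina1a). The 30 bases just before that stretch differ at 10 positions, shown in capitals, with each gene's place in GRCm38.p6.
Serpina1a, chr12:103863680-103863709: gtacctcagtgCccaCTCgatgGacTTAGC
Serpina1b, chr12:103738255-103738284: gtacctcagtgTccaACCgatgGacTTAGC
Serpina1c, chr12:103905017-103905046: gtacctcagtgCccaATCgatgAacTTAGC
Serpina1d, chr12:103773689-103773718: gtacctcagtgCccaATGgatgGacTCTCT
Serpina1e, chr12:103957015-103957044: gtacctcagtgCccaATCgatgGacATAGC
Reads from such copies may be shared between them, so the 5 values are not 5 separate measurements. The same caution holds for Ly6c1 and Ly6c2 and for the C1r and C1s pairs.

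Vim, which was among the 30 most abundant genes, and Igfbp4, which was among the 12 genes with the largest differences in favour of clone 2, both have the letters TATAAA of a TATA box close before the annotated start, shown in capitals with 30 bases of GRCm38.p6 on the plus strand.
Vim, chr2:13574267-13574296: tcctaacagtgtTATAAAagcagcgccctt
Igfbp4, chr11:99041204-99041233: ccagggggccggTATAAAgtcccgggagcc
The motif begins 32 bases before the start of Vim and 28 before that of Igfbp4. It was searched on the gene's strand between 50 and 16 bases before the start, where 2.32% of the 32851 RefSeq promoter windows hold it. Vim and Igfbp4 are shown as examples, and windows of several other named genes were not available. A link of the motif to level or to the clone difference was not tested. Igfbp4 and Vim also had H3K4me3 peaks.

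Differences ran through whole gene groups as well as single genes. Among lists with at least 10 expressed genes, cytokines and chemokines had the median farthest from 0: of 17 expressed members 15 were higher in clone 2 and 12 were past 2-fold in that direction, against 3.17% of all expressed genes, with a median log2 difference of -1.69. The highest by mean level were Cxcl12, which retains blood progenitors, at 40.9 and 117 FPKM and Cxcl5, which draws neutrophils, at 16.6 and 58.4 FPKM. Lif and Il11 were the members higher in clone 1, at 7.97 and 6.80 and 2.90 and 2.31 FPKM. Of the 42 measured members 20 were silent, Ccl3, Cxcl3, Cxcl9 and Il5 among them.

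Matrix genes were mostly higher in clone 2. Of the 130 expressed genes of the matrix lists, 97 were higher in clone 2 and 33 in clone 1, against 49% and 51% of all expressed genes. Their median log2 difference was -0.29, against 0.01 over all expressed genes. Past 2-fold were 21 in favour of clone 2 and 4 in favour of clone 1, against 3.17% and 0.886% of all expressed genes. Adhesive and matricellular glycoproteins had a median of -0.69 and proteoglycans of -0.40. Dcn, decorin, was at 10.0 and 72.1 FPKM, Prelp at 4.61 and 49.5, Ogn at 2.32 and 12.5 and Aspn at 0.773 and 6.27 FPKM, and Mgp, which inhibits calcification, was at 43.9 and 152 FPKM. Against that trend the matricellular genes Ctgf and Cyr61 were higher in clone 1, Cyr61 at 172 and 80.3 FPKM. Within the fibroblast identity list 27 of 34 expressed genes were higher in clone 2. Of these, 8 were past 2-fold, 23.5% of the expressed members against 3.17% of all expressed genes. Among them were Ly6a, Pdgfra at 25.7 and 86.5 FPKM and Dlk1 at 54.5 and 138 FPKM. Glycolysis genes were higher in clone 2 for 16 of 18 expressed members, with a median of -0.39, Aldoa and Pgk1 among them. The other 2 were Pkm and Eno1, at 499 and 352 FPKM, whose copy Eno1b was at 1149 and 1386 FPKM and higher in clone 2. Reads may be shared between these copies, so the direction of Eno1 is uncertain.

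Cell cycle and cytoskeleton genes were mostly higher in clone 1, which was the higher clone for 51% of all expressed genes. Of the 34 cell cycle and replication genes 33 were higher in clone 1, with a median log2 difference of 0.67, yet 0 were past 2-fold on log2(FPKM + 1). That scale shrinks ratios of genes at low level, and in FPKM itself Ccne2 was past 2-fold. The replication helicase subunits showed it evenly, with Mcm2 at 133 and 75.5, Mcm3 at 112 and 60.9, Mcm5 at 98.3 and 50.2 and Mcm6 at 114 and 56.8 FPKM, and Ccnd2, a cyclin of early G1, was the exception at 91.7 and 102 FPKM. Actin cytoskeleton genes were higher in clone 1 for 24 of 31 expressed members with a median of 0.40, tubulins for 11 of 13 with 0.30, and chaperones for 21 of 28 with 0.29. Of the 6 expressed smooth muscle genes 4 were higher in clone 1 and 2, Smtn and Des, in clone 2, with a median of 0.71. Tagln and Actg2 were past 2-fold in favour of clone 1 and Des in favour of clone 2. Ribosomal protein genes hardly differed, at a median of 0.04. The sign of each of these list medians was the same with a pseudocount of 0.1, with the overall median brought to 0 and after quantile normalization, whereas the Hox genes, at -0.03, and the respiratory chain genes, at 0.03, changed sign after quantile normalization, to 0.07 and -0.05.

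Differences also followed whole chromosomes. The median log2 difference, clone 1 minus clone 2, was 0.33 over the 384 expressed genes of chromosome 14 and 0.22 over the 558 of chromosome 10, and it was -0.30 over the 449 of chromosome 15 and -0.15 over the 552 of chromosome 3. Over the other 16 chromosomes the medians lay between -0.03 and 0.10. On chromosome 14, 307 of the 384 genes were higher in clone 1, and on chromosome 15, 338 of the 449 were higher in clone 2, against 51% and 49% of all expressed genes. On the linear scale of FPKM + 1 the medians of chromosomes 14 and 15 correspond to 1.26-fold and 1.23-fold.

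The shift spanned chromosomes 14 and 15 from end to end, and most of chromosomes 10 and 3. Medians over runs of 50 neighbouring expressed genes lay between 0.18 and 0.43 for all 335 runs of chromosome 14, and between -0.51 and -0.15 for all 400 runs of chromosome 15. On chromosome 10, 508 of 509 runs were above 0, and on chromosome 3, 502 of 503 were below 0. Neighbouring runs share most of their genes, and some stretches had no shift. The lowest run median of chromosome 10 was -0.01, and the highest of chromosome 3 was 0.002. Leaving out genes past 2-fold gave 0.33, 0.21, -0.26 and -0.14 for chromosomes 14, 10, 15 and 3. The number of copies of these chromosomes in each clone was not measured, and its part in the shift was not tested.

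The knockdown libraries show which clone stood apart. Relative to the mean of all 5 clones, clone 1 deviated on chromosome 14 by a median of 0.27, while the other 4 clones lay between -0.08 and -0.03, and on chromosome 15 by -0.22, while the others lay between 0.01 and 0.10. On chromosome 10 it was clone 2 that deviated, by -0.15, with the others between 0.02 and 0.10. On chromosome 3 the 5 clones were spread out: clone 1 was at -0.19, clone 2 at -0.04, and the knockdown clones at 0.14, 0.18 and -0.10.

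**Figure D5:**
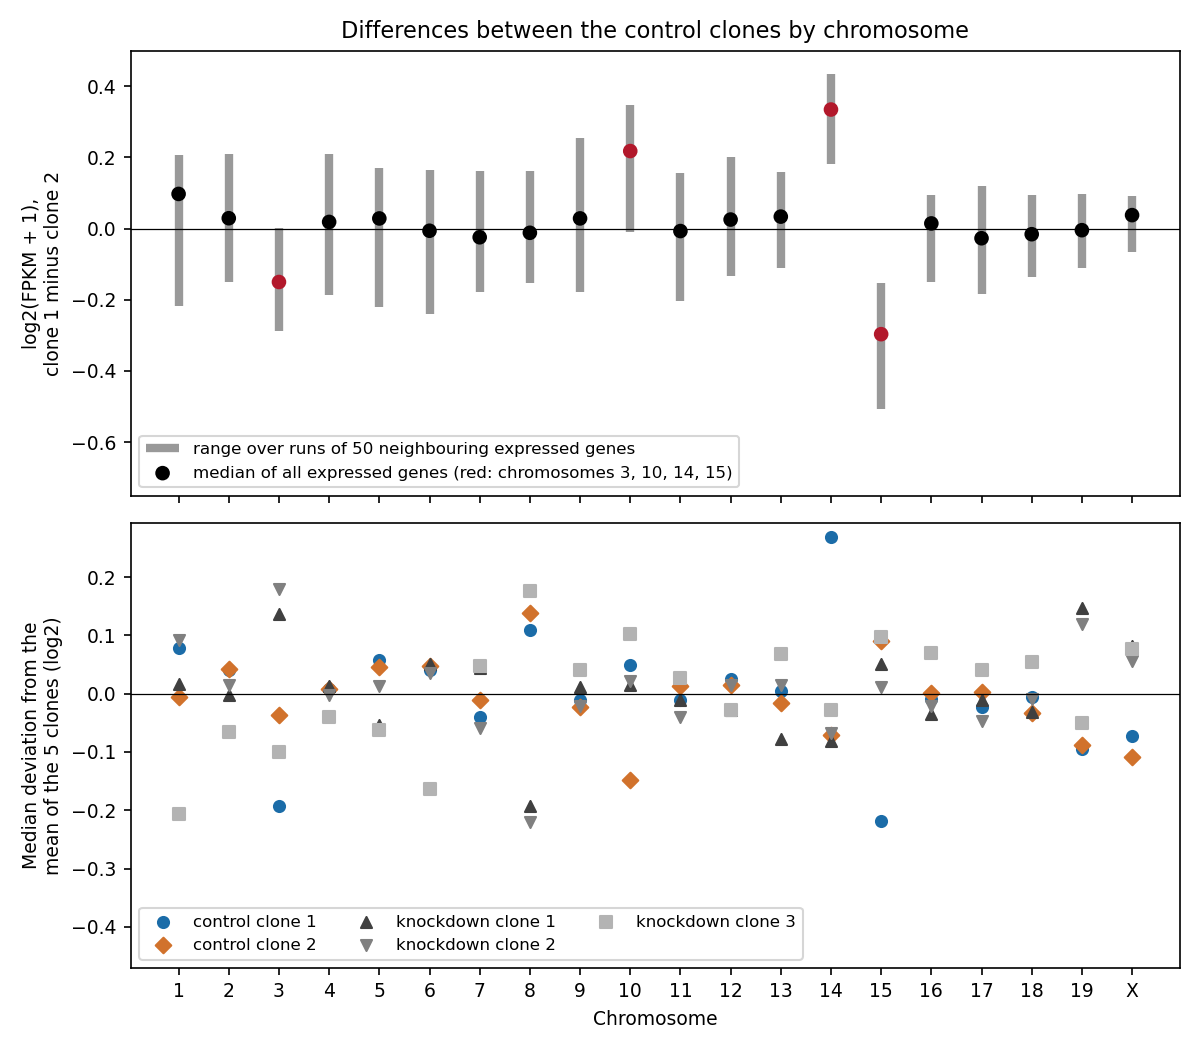
Upper panel: median difference in log2(FPKM + 1), clone 1 minus clone 2, for the expressed genes of each chromosome (points), with the range over runs of 50 neighbouring expressed genes (bars). Lower panel: median deviation of each of the 5 clones from their mean. Chromosomes 14 and 15 have bars that do not reach 0, and control clone 1 is the outlying clone on both.

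Chromosomes 10, 14 and 15 held more of the single-gene differences in the direction of their shift than their share of genes. On chromosome 3 the share past 2-fold in favour of clone 2 was 3.44%, against 3.17% over all expressed genes. Chromosomes 10 and 14 held 28 of the 100 genes past 2-fold in favour of clone 1, with 8.34% of all expressed genes. Chromosome 1, whose median was 0.10, held 13 of the 100. Ctgf and Sgk1 lie on chromosome 10, in the run of 50 genes with the lowest median there, -0.01 (mm9 chr10:12659787-28643313). Chromosome 15 held 36 of the 358 genes past 2-fold in favour of clone 2, 10.1% of them with 3.98% of the expressed genes, among them the Ly6 run and Grina. Most list medians were similar without them: leaving out chromosomes 3, 10, 14 and 15 the cell cycle list kept 30 genes and a median of 0.67, the cytokines 17 genes and -1.69, the actin list 25 genes and 0.43, the glycolysis list 15 genes and -0.38, and the adhesive glycoproteins 12 genes and -0.83. The integrin median moved from -0.31 to -0.12, the growth factor ligands from -0.02 to -0.13, and the Hox genes changed sign, from -0.03 to 0.13.

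Histone marks of unmodified cells were counted over the genes that differed between the clones as well. An H3K4me3 peak lay near an end of 76 of the 100 genes higher in clone 1 (exact 95% interval 66.4% to 84.0%) and of 80.7% of the 358 higher in clone 2 (76.3% to 84.7%), against 92.3% of all expressed genes. For H3K27ac the shares were 39% and 41.6%, against 63.4%. Peaks of RBBP4, a histone-binding subunit of the chromatin remodelling complex NuRD, mapped in luciferase-transduced cells, lay near 26 of the 100 genes higher in clone 1 (17.7% to 35.7%) and near 8.66% of those higher in clone 2 (5.96% to 12.1%), against 14.96% of all expressed genes. The classes were not matched for level: the median was 16.9 FPKM for the genes higher in clone 1 and 6.73 FPKM for those higher in clone 2, against 13.4 FPKM for all expressed genes. RBBP4 was singled out after its values were seen.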

How the data were processed

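Polyadenylated RNA of 2 control clones and 3 knockdown clones was used, 1 library each. The authors deposited FPKM per gene with 95% confidence bounds, and peak lists with a score per peak, which was used only in an alternative with peaks of at least median score. Bowtie, bedtools, TopHat, Cufflinks, Cuffdiff and MACS2 and the build mm9 are named, per the submitters' processing notes, without settings or roles. FPKM was summed per gene symbol, short RNA genes were left out, and 1 entry with a failed status (Cep250) was kept. Differences were taken on log2(FPKM + 1) over genes with a mean of at least 1 FPKM, and a difference of 1 is called 2-fold. The genes named are the 30 most abundant, and for each list the 4 highest, the lowest expressed and up to 4 silent members. Lineage genes with a mean of at least 5 FPKM are named too. For clone differences they are the 12 largest in each direction with a mean of at least 5 FPKM and authors' intervals apart, and the 10 largest with a mean of at least 100 FPKM. Other genes named with the differences, runs and lists were chosen after their values were seen. Some genes that the rule names are not reported here. Promoter sequences come from RefSeq (GRCm38.p6) and serve for display only. Members and lists were chosen with earlier results of these data known. The computation used Python 3.11.15 and numpy 2.4.6 and was tested on simulated data. Alternatives were other pseudocounts, filters, scalings and peak distances, and leaving out each clone.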

Additional observations from a re-analysis of the deposited data

How the results depend on the processing

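After quantile normalization the list medians of Hox and respiratory chain genes changed sign, as given above, and so did those of cartilage, from -0.12 to 0.01, and melanocyte genes, from -0.13 to 0.04, while that of skeletal muscle went from -0.14 to 0. The other results given here kept their direction. No paired analysis was possible because each clone is 1 library and no test between groups was made. With each clone left out in turn the expressed genes numbered 11077 to 11406, the expressed matrix genes 127 to 132, the silent lineage genes 190 to 214, and the share of summed FPKM in the 100 most abundant genes, 30.7% over both clones, was 30.6% to 31.1%. With short RNA genes kept that share was 31.5%. Silent lineage genes fell from 185 to 79 when a value of 0 in both clones was required. Genes past 2-fold, 100 higher in clone 1 and 358 in clone 2, numbered 159 and 518 with a pseudocount of 0.1, and 72 and 211 with a filter at 5 FPKM. The share of expressed genes with an H3K4me3 peak was 90.6% at the gene end itself, 93.7% within 3 kb and 91.0% with peaks of at least median score, and that of silent genes 3.72%, 14.7% and 3.65%. The chromosome alternatives were chosen after seeing the data. The median of chromosome 14 became 0.38 with a pseudocount of 0.1, 0.38 with the filter at 5 FPKM and 0.37 after quantile normalization. That of chromosome 10 became 0.26 with the filter, that of chromosome 15 became -0.26 without genes past 2-fold, and that of chromosome 3 became -0.11 after quantile normalization. Of the genes past 2-fold, 26.3% were higher in clone 1 after quantile normalization, against 21.8%. The cause of these shifts was not tested. Depth limits values near 1 FPKM, and 1 library per clone limits every difference between them.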
